A study of Mus musculus with 6 samples.

Results

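The heat shock proteins and their co-chaperones were read as 79 genes of the 19057 that carried 1 symbol on the mouse array. They were taken by platform symbol: every symbol that opens with Hspa, Hspb, Hspd, Hspe, Hsph, Hsp90 or Dnaj, together with Cryab, Bag3 and the Cct genes whose symbol goes on with a digit. Their 149 probes fell into 8 small heat shock proteins, 14 Hsp70 and Hsp110 genes, 2 Hsp90 genes, 2 mitochondrial chaperonin genes, 3 DNAJA, 12 DNAJB and 25 DNAJC genes, 9 CCT genes, Bag3, and 3 genes that share only the prefix (Hspbp1, Hspbap1 and Hspb11). Hsf1 and Hsp90ab1, which the same choice would include, were not analysed here. Where a gene had several probes, the brightest on average across the 6 arrays was read. Of the 79 genes, 60 were detected (detection p-value below 0.05) on at least 2 arrays and were tested. Of the 19 others, 15 were detected on no array and 4 (Dnaja1, Dnajc6, Dnajc11 and Dnajc14) on 1 array.

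Chaperones hold unfolded or partly folded proteins, keep them from clumping, and release them for folding or for breakdown. Hsp70 does this in a cycle of ATP binding and hydrolysis that J-domain proteins (the DNAJ genes) start and nucleotide exchange factors (Hsp110, BAG3, HSPBP1) end. Small heat shock proteins need no ATP, and in striated muscle they sit on the Z-disc, on desmin and on filamin C, where HSPB8 and BAG3 hand damaged proteins to autophagy. Hsp90 completes the folding of kinases and receptors, CCT closes around actin and tubulin, and HSPD1 with its lid HSPE1 folds proteins in the mitochondrial matrix. Heat shock factors, of which HSF1 is the best known, drive many of these genes through repeats of the letters GAA and TTC in their promoters.

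The RNA came from quadriceps of NOD-SCID mice, which lack functional T and B cells, 22 days after human renal cancer cells had been placed under the skin. One set of mice carried RXF393 cells, which the labels call cachectic (wasting-inducing), and the other carried SKRC39 cells, which they call not cachectic. All mice bore a tumour, so no array shows muscle without one, and each tumour model is 1 cell line. Of the 6 arrays, 4 have a title and characteristics that name the same line: RXF393 replicates 2 and 3, and SKRC39 replicates 1 and 2. The title and the characteristics contradict each other on the remaining 2, titled RXF_1 (SKRC39 in its characteristics) and SKR_3 (RXF393 in its characteristics). These 2 arrays were assigned to no line and are given apart.

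Between 30.28% and 37.73% of all probes were detected per array, and 56 to 58 of the 60 tested chaperone genes. All 12 skeletal muscle markers, among them Acta1, Ckm and Myh4, were detected on all 6 arrays. Among the markers of other cell types, only Lcn2 had an adjusted p below 0.05 (0.03, limma), and the other markers are given as values. The summed intensities of endothelial and of adipocyte markers overlapped between the lines. The summed intensity of 14 neutrophil markers was 14700 and 11110 in RXF393 muscle, against 623.9 and 1006 in SKRC39 muscle, although 7 of the 14 (Mpo, Elane, Ltf, Camp, Ngp, Mmp8 and Cxcr2) were detected on no array. Lcn2 alone made up 83.6% and 39.7% of that sum in RXF393 muscle, against 9.79% and 8.24% in SKRC39 muscle, and without it the sum was 2416 and 6697 against 562.8 and 923. Of the other 6 tested neutrophil markers, 5 had positive differences and Csf3r had −0.24. Among the 5, Retnlg and Chil3 were detected on 3 arrays each and lay below the lowest detected value on both SKRC39 arrays. These 2 were therefore kept only through arrays other than those of SKRC39, and their direction is given only as read. The summed intensity of 10 fibroblast markers was 20980 and 24700 in RXF393 muscle, against 35300 and 38060 in SKRC39 muscle, and Postn was detected on no array. All 3 tested erythroid markers had positive differences, with a median of 2.61. The lines did not overlap for Slc4a1 (3.65) and Alas2 (2.61), and overlapped for Hba-a1 (0.71), the brightest of the list. The erythroid list summed to 78940 and 74790 in RXF393 muscle, against 67480 and 26670 in SKRC39 muscle. Of 9 tested macrophage markers, 6 had negative differences, among them C1qa, C1qb and C1qc with lines that did not overlap. The other 3 were positive, among them Cd14 at 1.655, also with lines that did not overlap. The macrophage list summed to 2639 and 2994 in RXF393 muscle, against 2853 and 4500 in SKRC39 muscle, and these sums overlapped. The part of these cell types in the chaperone values was not tested. In whole muscle, fewer cells of a type and less RNA per cell cannot be told apart.

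No chaperone gene passed the test in either direction, yet the tested genes lay more often above than below in RXF393 muscle. The differences with the lowest p-values were a lower Hspb2 and higher Hspb1 and Dnajb2, followed by a higher Hspa4. Across the 60 tested genes the log2 difference (RXF393 minus SKRC39) had a median of 0.46 and ran between −2.59 for Hspb2 and 2.65 for Hspa4, against a median of 0.07 over all 10196 genes tested. It was positive for 43 of the 60 (71.7%), against 53.5% of all genes.

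In limma, 0 of the 60 had an adjusted p below 0.05, against 0.353% of all genes tested (0.196% higher and 0.157% lower), and the lowest adjusted p was 0.114. At an unadjusted p below 0.05 stood 14 (23.3%), 11 of them higher (18.3%) and 3 lower (5%), against 14.8%, 8.1% and 6.69% of all genes. Both RXF393 arrays lay above both SKRC39 arrays for 28 of the 60 (46.7%) and below them for 6 (10%), against 28.1% and 20.6% of all genes. The difference between lines exceeded the difference between the replicates of either line for 27 of the 60 (45%), against 34.3% of all genes. The difference of the means and its SE are given for each gene on the log2 scale, n = 2 arrays a line.

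**Figure D1:**
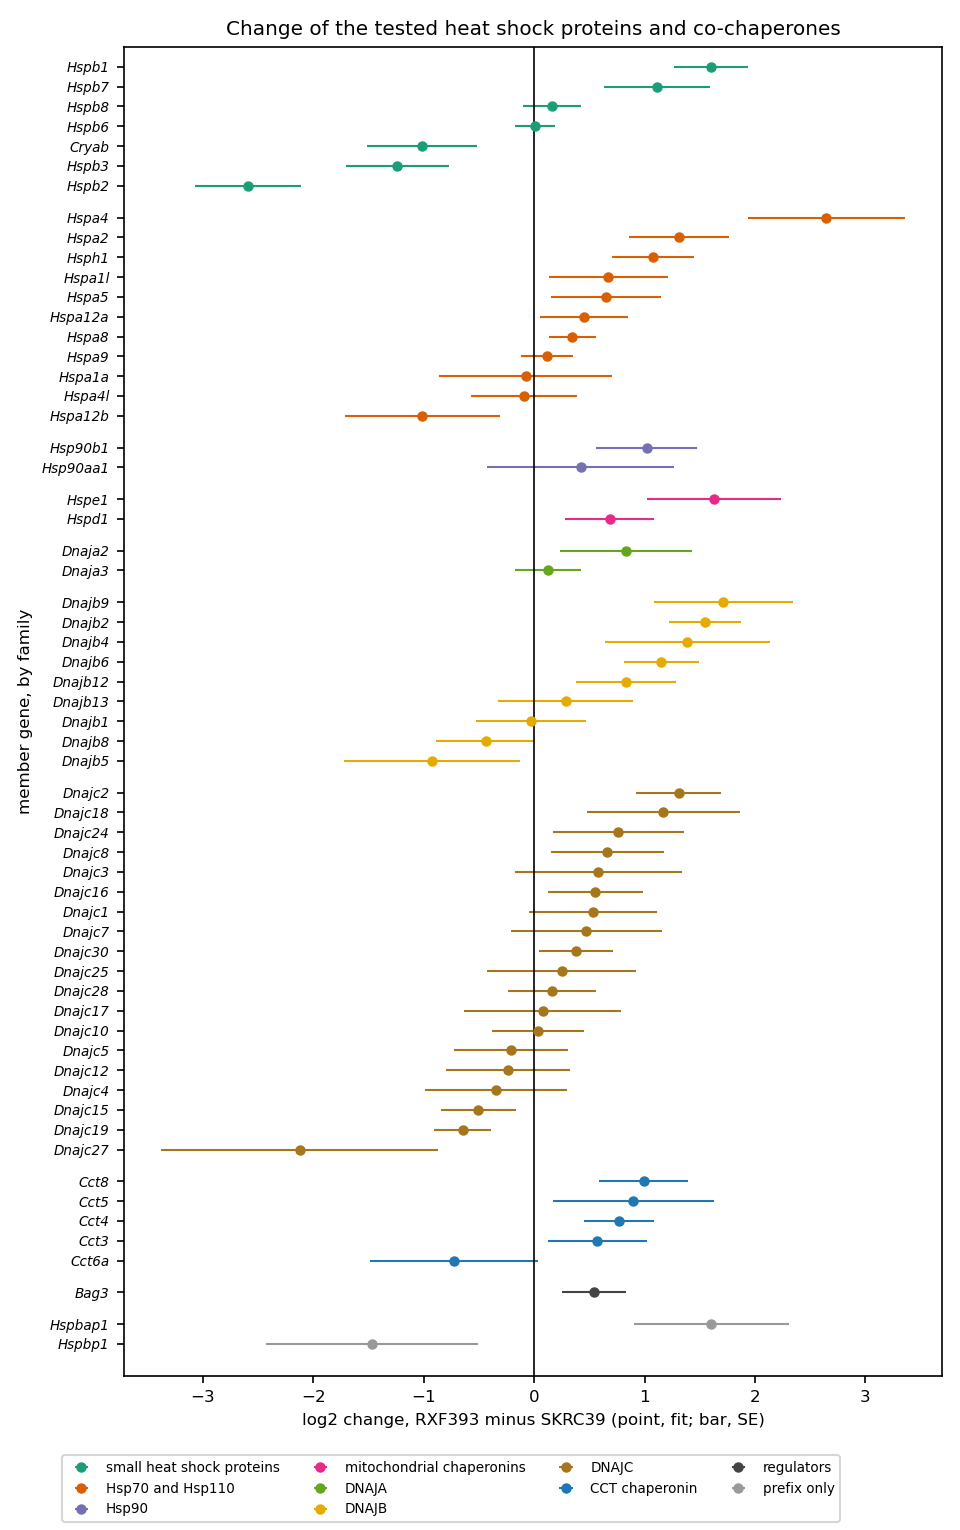
Log2 difference of each of the 60 tested genes, RXF393 minus SKRC39, with its standard error (bar), grouped by family from top to bottom. Most points lie right of 0. The small heat shock proteins reach from −2.59 (Hspb2) to 1.60 (Hspb1).

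When the 2 arrays with conflicting labels were added by their characteristics (3 against 3 arrays), 13 of the 60 passed, 10 higher (16.7%, against 10.5% of all genes) and 3 lower (5%, against 7.81%). The higher ones were Hspb1, Hspa2, Hspa4, Hspe1, Dnajb2, Dnajb6, Dnajc2, Cct4, Cct8 and Hspbap1, and the lower ones Hspb2, Hspb3 and Dnajc19. When all 6 arrays were grouped by title, none of the 60 passed. Every call named below as made with 6 arrays therefore rests on reading 2 disputed arrays one way.

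The small heat shock proteins split into opposite directions. Hspb1 and Hspb7 had higher values in RXF393 muscle, while Hspb2, Hspb3 and Cryab had lower ones and Hspb6 and Hspb8 lay together. Of 7 tested genes, 4 differences were positive and 3 negative, with a median of 0.01, while 53.5% of all genes had positive differences. Hspb9 was detected on no array. Both RXF393 arrays lay above both SKRC39 arrays for 2 of the 7 (Hspb1 and Hspb7), against 28.1% of all genes. They lay below for 3 (Hspb2, Hspb3 and Cryab), against 20.6% of all genes.

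Hspb1 encodes the chaperone called HSP25 in the mouse, which binds partly unfolded proteins and actin filaments. It stood at 13.52 and 13.41 (log2 intensity) in RXF393 muscle, against 12.09 and 11.64 in SKRC39 muscle. The RXF393 arrays were well above both SKRC39 arrays and close to each other. The difference was 1.60 ± 0.34 (SE), or 3.04-fold, with an adjusted p of 0.142 in limma. With 6 arrays by characteristics it was 1.52 ± 0.22, with a limma adjusted p of 0.00588. Its promoter is shown because it holds the letters GAANNTTC, the core of a heat shock element, at 2 places, in capitals, with their first bases 117 and 97 bases before the gene start (RefSeq, GRCm38.p6, chr5:135887669-135887968, plus strand).
Hspb1: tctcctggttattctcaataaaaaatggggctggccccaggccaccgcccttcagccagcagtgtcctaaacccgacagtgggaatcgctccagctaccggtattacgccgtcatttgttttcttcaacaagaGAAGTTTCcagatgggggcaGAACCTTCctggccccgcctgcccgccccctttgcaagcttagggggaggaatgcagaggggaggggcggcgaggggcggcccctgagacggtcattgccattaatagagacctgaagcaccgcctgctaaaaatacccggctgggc

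Hspb2 and Hspb3 encode muscle small heat shock proteins that form a complex with each other, and Hspb2 lies beside Cryab in the genome. Hspb2 stood at 9.58 and 8.90 in RXF393 muscle, against 11.67 and 11.99 in SKRC39 muscle. The lines were separated by more than the spread within either. Its difference of −2.59 ± 0.48, a level 6.02-fold lower in RXF393 muscle, had a limma adjusted p of 0.114, the lowest of the 60. With 6 arrays by characteristics it was −3.02 ± 0.43, with a limma adjusted p of 0.00607. It also passed, at a limma adjusted p of 0.0404, when only probes detected on all 6 arrays were tested, a fit that called 0.729% of all genes lower and 1.29% higher.

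Hspb3 followed the same direction at a smaller size, with 10.25 and 9.64 in RXF393 muscle, against 11.20 and 11.16 in SKRC39 muscle. Neither RXF393 array reached an SKRC39 array. The difference was −1.24 ± 0.46, with a limma adjusted p of 0.35. Cryab, the αB-crystallin that guards desmin and titin, stood at 12.89 and 11.46 in RXF393 muscle, against 13.33 and 13.05 in SKRC39 muscle. Both RXF393 arrays were lower, but they differed from each other by more than the lines did. The difference was −1.01 ± 0.50 (limma adjusted p = 0.442).

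Hspb7, a filamin C binding protein of heart and skeletal muscle, stood at 13.90 and 12.56 in RXF393 muscle, against 12.17 and 12.07 in SKRC39 muscle. Both RXF393 arrays were above, replicate 2 by far the most. The difference was 1.11 ± 0.48 (limma adjusted p = 0.391). Hspb8, the partner of BAG3 in clearing damaged Z-disc proteins, stood at 15.38 and 14.87 in RXF393 muscle, against 14.85 and 15.07 in SKRC39 muscle, and the lines overlapped. Its 2 probes gave differences of 0.17 ± 0.26 and −0.64 ± 0.86, so that no direction held across them. Bag3 itself, the exchange factor that links HSPB8 to Hsp70, stood at 15.11 and 14.47 in RXF393 muscle, against 14.30 and 14.20 in SKRC39 muscle. Both RXF393 arrays were above, by 0.54 ± 0.29 (limma adjusted p = 0.473).

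Hspb6 encodes HSP20, an actin-associated small heat shock protein. It lay within 20% of the highest signal of every array, at 16.09 and 16.13 in RXF393 muscle, against 16.08 and 16.12 in SKRC39 muscle. A difference at the top of the scale could be hidden, and 0.01 ± 0.18 is given only as the value read.

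**Figure D2:**
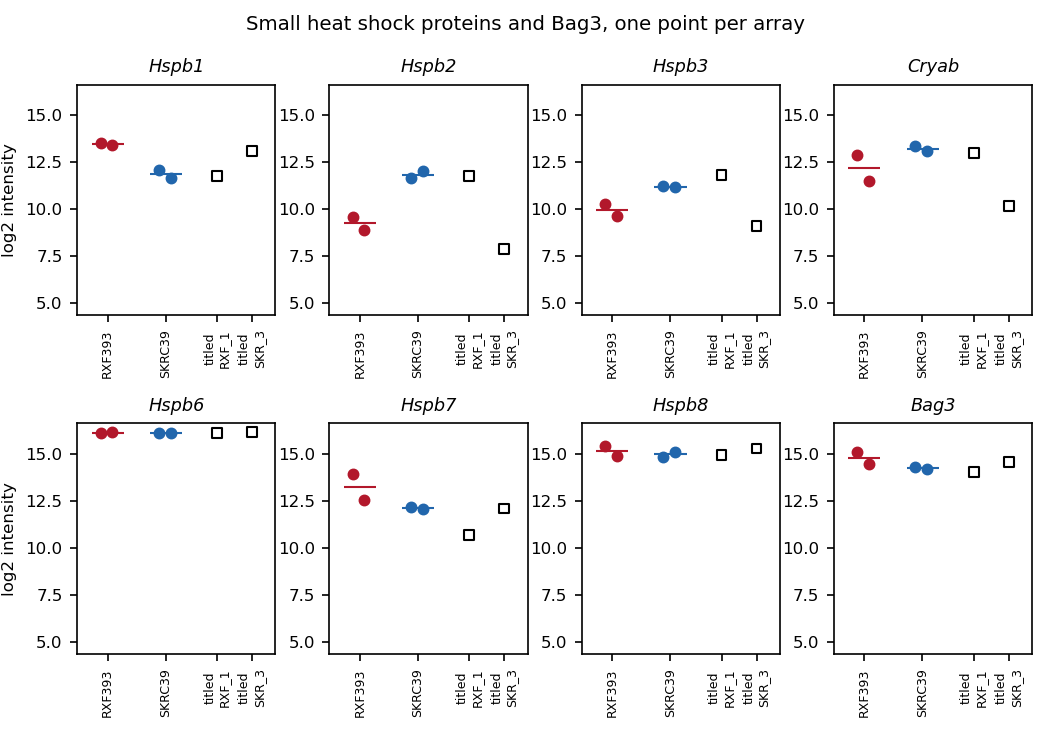
Log2 intensity of 7 small heat shock protein genes and Bag3 on each array, with filled points for RXF393 (red, left) and SKRC39 (blue), lines at their means, and open squares for the arrays titled RXF_1 and SKR_3. Hspb2 and Hspb3 lie lower and Hspb1 higher in RXF393 muscle, and Hspb6 lies at the top of the scale on every array.

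Among the Hsp70 and Hsp110 genes, Hspa4, Hsph1 and Hspa2 were higher on both RXF393 arrays, Hspa8 lay higher by a smaller amount, and Hspa1a, Hspa9 and the Hsp110 gene Hspa4l had lines that overlapped. Of 11 tested genes, 8 differences were positive and 3 negative, with a median of 0.46. Both RXF393 arrays lay above both SKRC39 arrays for 7 of the 11, against 28.1% of all genes, and below them for none, against 20.6%. One of the 7, Hspa12a, was detected on 1 RXF393 array and no SKRC39 array. Without it, 7 of 10 differences were positive, with a median of 0.50, and 6 of the 10 had both RXF393 arrays above.

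Hspa4 and Hsph1 encode Hsp110 proteins, the exchange factors that release ADP from Hsp70. Hspa4 stood at 8.83 and 9.57 in RXF393 muscle, against 6.06 and 7.05 in SKRC39 muscle. The lowest RXF393 array was far above the highest SKRC39 array, although the replicates of each line also differed. The difference was 2.65 ± 0.71, or 6.25-fold, with a limma adjusted p of 0.223. With 6 arrays by characteristics it was 2.50 ± 0.43 (limma adjusted p = 0.0118). Hsph1 stood at 13.37 and 12.94 in RXF393 muscle, against 11.79 and 12.36 in SKRC39 muscle. The lines did not overlap. The difference was 1.08 ± 0.37 (limma adjusted p = 0.313). Hspa4l, the third Hsp110 gene, named after its values were seen, was detected on 3 arrays and differed by −0.09 ± 0.48 (limma adjusted p = 0.943).

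Hspa2, an Hsp70 best known from testis, stood at 12.16 and 11.73 in RXF393 muscle, against 10.25 and 11.01 in SKRC39 muscle. Both RXF393 arrays were above both SKRC39 arrays. The difference was 1.31 ± 0.45 (limma adjusted p = 0.315), and a second, dimmer probe gave 0.49 with overlapping lines. Hspa1l, its close relative in testis, differed by 0.67 ± 0.54 (limma adjusted p = 0.596).

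Hspa8, the constitutive Hsp70 of the cytosol, stood at 15.62 and 15.67 in RXF393 muscle, against 15.17 and 15.43 in SKRC39 muscle. The RXF393 arrays were slightly higher, by 0.35 ± 0.21 (limma adjusted p = 0.52). Its other probes gave 0.98 ± 0.35, with lines that did not overlap (limma adjusted p = 0.335), and 0.74 ± 0.81, with lines that did. Hspa1a, the classical stress-induced Hsp70, stood at 8.29 and 9.28 in RXF393 muscle, against 7.98 and 9.75 in SKRC39 muscle. Its lines overlapped fully, with a difference of −0.08 ± 0.79 (limma adjusted p = 0.973). The near-identical Hspa1b was detected on no array, nor were Hspa13 and Hspa14, and signal of the pair may be shared between their probes. Hspa5, the BiP of the endoplasmic reticulum, differed by 0.65 ± 0.50 and Hspa9, the mortalin of mitochondria, by 0.11 ± 0.24 (limma adjusted p = 0.584 and 0.845).

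The promoters of Hsph1 and Hspa1a are set side by side because both hold GAANNTTC and the values of the 2 genes differ. In Hsph1 the motif, in capitals, starts at base 42 of the gene and has a TTC block ending 2 bases before it, which reads as a following GAA on the other strand (RefSeq, GRCm38.p6, chr5:149636287-149636586, minus strand). In Hspa1a it starts 104 bases before the gene start (RefSeq, GRCm38.p6, chr17:34972107-34972406, minus strand).
Hsph1: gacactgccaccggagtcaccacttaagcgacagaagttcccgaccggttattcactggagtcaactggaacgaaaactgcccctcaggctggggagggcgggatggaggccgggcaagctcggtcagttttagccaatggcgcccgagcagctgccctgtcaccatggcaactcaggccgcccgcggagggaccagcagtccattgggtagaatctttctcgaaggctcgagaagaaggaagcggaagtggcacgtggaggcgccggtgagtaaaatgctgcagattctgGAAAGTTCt
Hspa1a: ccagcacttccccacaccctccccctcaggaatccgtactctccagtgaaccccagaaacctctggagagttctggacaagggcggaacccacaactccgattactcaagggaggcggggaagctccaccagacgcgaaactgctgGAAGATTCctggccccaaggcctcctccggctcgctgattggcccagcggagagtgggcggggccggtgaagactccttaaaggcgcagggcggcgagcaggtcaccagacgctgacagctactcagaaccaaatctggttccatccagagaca

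Both tested Hsp90 genes had positive differences, and on the probes read only Hsp90b1 had lines that did not overlap. Hsp90b1, the GRP94 that folds integrins and Toll-like receptors in the endoplasmic reticulum, stood at 12.19 and 12.89 in RXF393 muscle, against 11.08 and 11.96 in SKRC39 muscle. The difference was 1.02 ± 0.46 (limma adjusted p = 0.409). Hsp90aa1, the stress-inducible cytosolic Hsp90, stood at 6.93 and 7.64 in RXF393 muscle, against 5.85 and 7.87 in SKRC39 muscle. The SKRC39 arrays enclosed both RXF393 arrays, and without SKRC39 replicate 1 the sign of its 0.42 turned to −0.59. A dimmer Hsp90aa1 probe was detected on 3 arrays, among them both RXF393 arrays but no SKRC39 array. It was therefore kept only through arrays other than those of SKRC39. Its 1.10 ± 0.56, with lines that did not overlap (limma adjusted p = 0.453), is given only as the value read.

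The mitochondrial chaperonin pair lay higher on both RXF393 arrays. Hspe1, the lid, stood at 9.92 and 11.13 in RXF393 muscle, against 8.64 and 9.15 in SKRC39 muscle. Hspd1, the barrel, stood at 12.13 and 12.31 in RXF393 muscle, against 11.88 and 11.20 in SKRC39 muscle. The lines did not overlap for either gene. The differences were 1.63 ± 0.61 for Hspe1 and 0.68 ± 0.40 for Hspd1 (limma adjusted p = 0.348 and 0.501).

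These 2 genes are read in opposite directions from 1 shared promoter. The 300-base Hspe1 window overlaps 1 of the 2 Hspd1 windows by 285 bases, and the other Hspd1 window holds no GAANNTTC. The match of the 2 genes is the same site, 84 bases before the Hspe1 start, shown in capitals (RefSeq, GRCm38.p6, chr1:55087898-55088197, plus strand).
Hspe1: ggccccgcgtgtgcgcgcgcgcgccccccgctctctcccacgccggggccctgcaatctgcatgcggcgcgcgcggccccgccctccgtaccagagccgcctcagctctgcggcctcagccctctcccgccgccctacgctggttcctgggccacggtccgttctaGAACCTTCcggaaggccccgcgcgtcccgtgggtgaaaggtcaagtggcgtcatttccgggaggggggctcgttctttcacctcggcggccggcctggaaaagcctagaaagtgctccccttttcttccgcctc

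**Figure D3:**
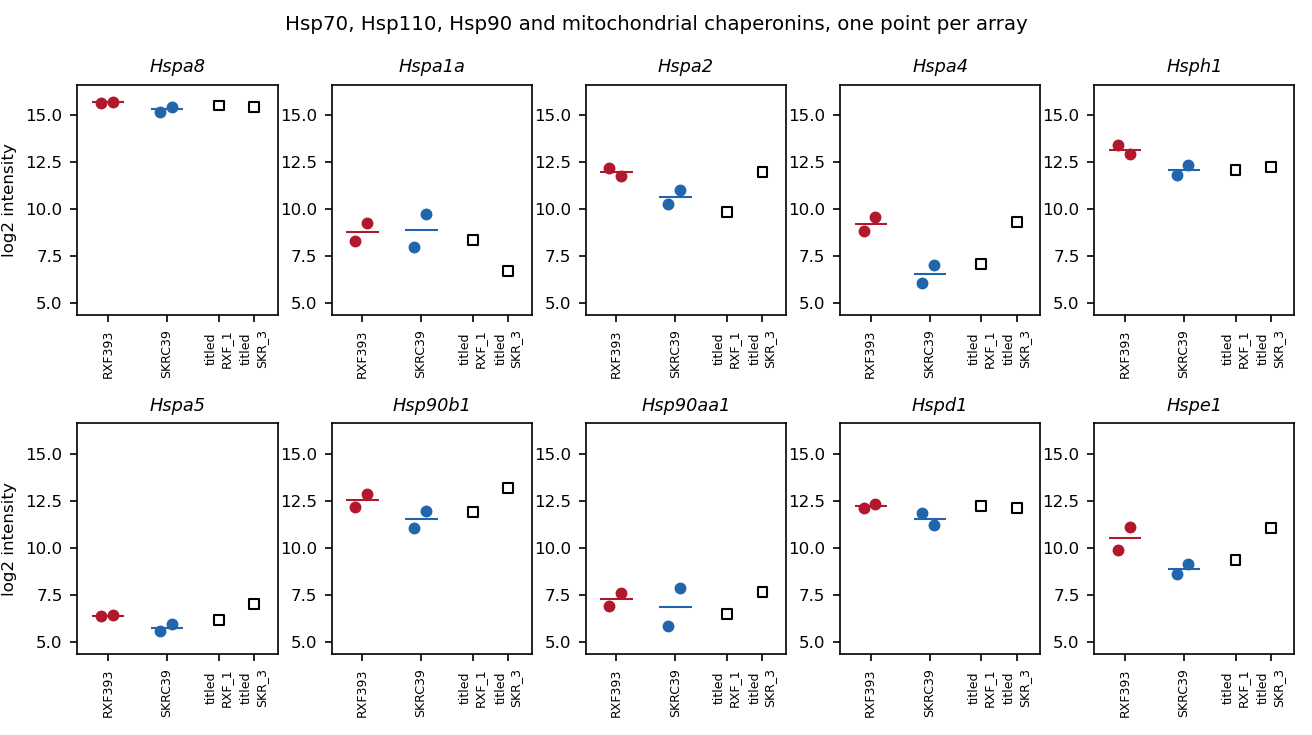
Log2 intensity of Hsp70, Hsp110, Hsp90 and mitochondrial chaperonin genes on each array, with filled points for RXF393 (red, left) and SKRC39 (blue), lines at their means, and open squares for the arrays titled RXF_1 and SKR_3. The lines are farthest apart for Hspa4 and overlap for Hspa1a and Hsp90aa1.

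The J-domain proteins, which bring clients to Hsp70, were the most numerous. Of 30 tested, 21 differences were positive and 9 negative, with a median of 0.33. The DNAJB class had a median of 0.83 over 9 genes, 6 of them positive (0.25 over all 12 unfiltered), the DNAJC class 0.25 over 19 genes, 13 of them positive, and the 2 tested DNAJA genes 0.13 (Dnaja3) and 0.83 (Dnaja2). Dnajb3, Dnajb7, Dnajb14, Dnajc5b, Dnajc5g and Dnajc9 were detected on no array.

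Dnajb2, which binds ubiquitin chains and passes Hsp70 clients to the proteasome, stood at 13.88 and 14.02 in RXF393 muscle, against 12.14 and 12.68 in SKRC39 muscle. The lines were separated by more than the spread within either. The difference was 1.54 ± 0.33, or 2.92-fold, with a limma adjusted p of 0.144. With 6 arrays by characteristics it was 1.58 ± 0.22 (limma adjusted p = 0.0055).

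Dnajb6, which keeps aggregation-prone proteins soluble and is mutated in a human limb-girdle muscular dystrophy, stood at 13.03 and 13.55 in RXF393 muscle, against 12.10 and 12.17 in SKRC39 muscle. Both RXF393 arrays were higher, by 1.15 ± 0.34 (limma adjusted p = 0.26). The 3 dimmer tested probes gave 0.35, 0.80 and 0.00, with overlapping lines.

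Dnajb9, a J protein of the endoplasmic reticulum that serves BiP, stood at 10.63 and 12.31 in RXF393 muscle, against 9.88 and 9.63 in SKRC39 muscle. The RXF393 arrays lay above but far from each other. The difference was 1.71 ± 0.63 (limma adjusted p = 0.344), and a second probe gave 2.20. Without RXF393 replicate 2 it was 2.56 (limma adjusted p = 0.049), in a fit that called 1.7% of all genes higher and 2.72% lower, left 1 RXF393 array, and assumed that this array varies as the SKRC39 arrays do.

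Their relatives in the cytosol did not share a direction. Dnajb4 differed by 1.39 ± 0.75 with both RXF393 arrays above (limma adjusted p = 0.473). Dnajb1, the classical Hsp40, stood at 10.18 and 11.11 in RXF393 muscle, against 10.82 and 10.53 in SKRC39 muscle, and its difference of −0.03 ± 0.50 turned sign under median scaling (0.134) and with no scaling (0.068). Dnajb5 differed by −0.92 ± 0.80 with overlapping lines (limma adjusted p = 0.617).

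In the DNAJC class, Dnajc2, which works with Hsp70 on nascent chains at the ribosome, stood at 12.21 and 12.18 in RXF393 muscle, against 10.73 and 11.05 in SKRC39 muscle. The RXF393 arrays were nearly equal and both higher, by 1.31 ± 0.38 (limma adjusted p = 0.254). A second probe near background gave overlapping lines. Dnajc18 of the endoplasmic reticulum membrane (1.17 ± 0.69), Dnajc24 of diphthamide synthesis (0.76 ± 0.60) and the splicing factor Dnajc8 (0.66 ± 0.51) also had both RXF393 arrays above, with limma adjusted p of 0.504, 0.589 and 0.584.

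Dnajc19 and Dnajc27 are named here after their values were seen. Dnajc19, of the mitochondrial import motor, stood at 13.66 and 13.78 in RXF393 muscle, against 14.36 and 14.37 in SKRC39 muscle. It was the tightest of the lower ones, with a difference of −0.65 ± 0.25 (limma adjusted p = 0.367), while its dimmer probes pointed in both directions. Dnajc27 stood at 10.24 and 6.19 in RXF393 muscle, against 10.97 and 9.70 in SKRC39 muscle, with a difference of −2.12 ± 1.25. RXF393 replicate 3 lay far below RXF393 replicate 2 and both SKRC39 arrays. The array titled SKR_3 was also low, at 6.81, and the array titled RXF_1 stood at 10.75. The dimmer Dnajc27 probe gave −1.05 ± 0.56, with both RXF393 arrays below both SKRC39 arrays (limma adjusted p = 0.467).

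The CCT chaperonin, which folds actin and tubulin, had 5 of 9 genes tested. Of these, 4 had positive differences, with a median of 0.77. Cct2, Cct6b, Cct7 and Cct8l1 were detected on no array, and with them, unfiltered, the median was 0.17. Cct8 stood at 11.96 and 12.46 in RXF393 muscle, against 11.01 and 11.42 in SKRC39 muscle. Cct4 stood at 13.81 and 13.88 in RXF393 muscle, against 12.79 and 13.36 in SKRC39 muscle. Both subunits had lines that did not overlap, with differences of 0.99 ± 0.40 and 0.76 ± 0.32 (limma adjusted p = 0.376 and 0.385).

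The other subunits did not follow them as clearly, although all sit in one complex. Cct5 differed by 0.90 ± 0.73 and Cct3 by 0.57 ± 0.45, with overlapping lines, and a second Cct3 probe gave −1.12. Cct6a stood at 12.67 and 10.52 in RXF393 muscle, against 12.98 and 11.67 in SKRC39 muscle. Its difference of −0.73 ± 0.76 was smaller than the spread between the RXF393 replicates, and it was 0.35 without RXF393 replicate 3. Tcp1, the subunit whose symbol does not start with Cct, stood at 11.91 and 7.31 in RXF393 muscle, against 12.23 and 10.66 in SKRC39 muscle. Its lines overlapped, with a difference of −1.83 ± 1.37 (limma adjusted p = 0.575).

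**Figure D4:**
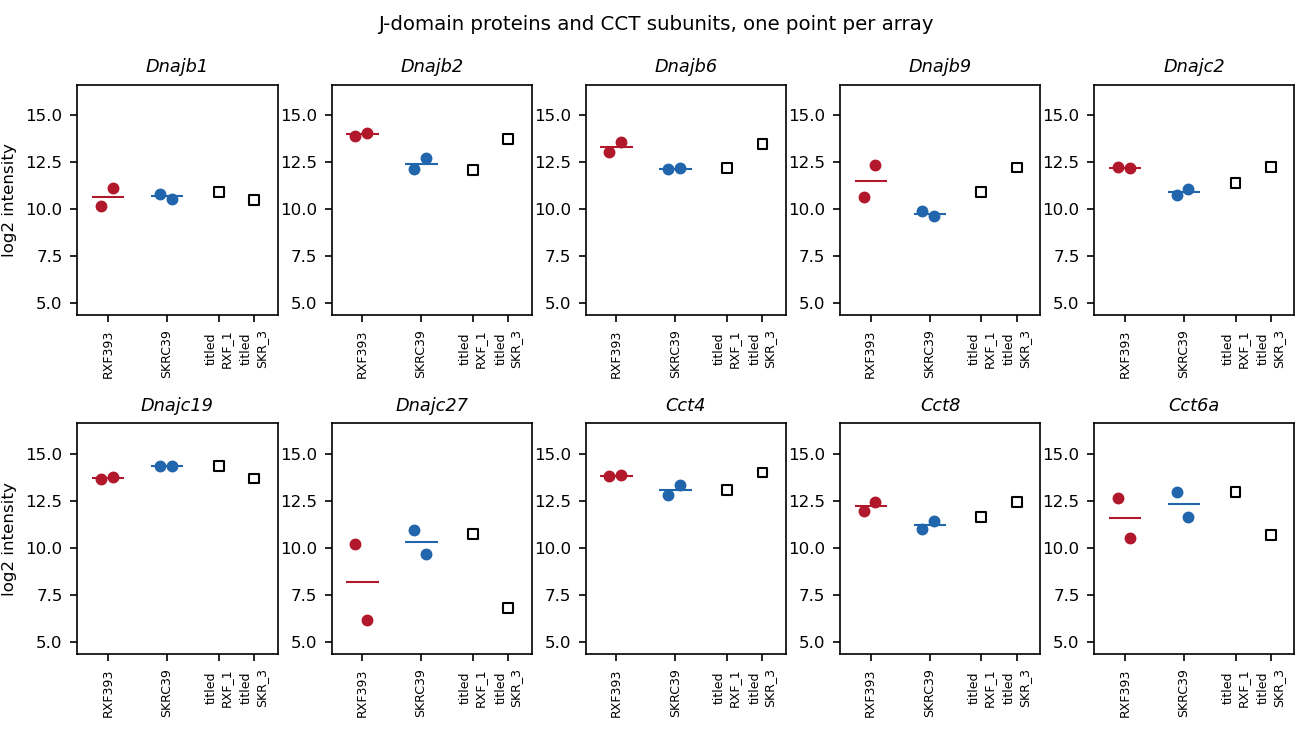
Log2 intensity of J-domain genes and 3 CCT subunits on each array, with filled points for RXF393 (red, left) and SKRC39 (blue), lines at their means, and open squares for the arrays titled RXF_1 and SKR_3. Dnajb2, Dnajb6, Dnajc2, Cct4 and Cct8 lie higher and Dnajc19 lower in RXF393 muscle, while Dnajc27 and Cct6a spread widely within RXF393.

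Of the genes that share only the prefix, Hspbap1, whose protein binds HSPB1, stood at 8.88 and 9.46 in RXF393 muscle, against 6.97 and 8.17 in SKRC39 muscle. Both RXF393 arrays were above, by 1.60 ± 0.70 (limma adjusted p = 0.399). Hspbp1, an exchange factor for Hsp70 named after its values were seen, was detected on 3 arrays and stood at 5.81 and 5.18 in RXF393 muscle, against 8.45 and 5.48 in SKRC39 muscle. Its lines overlapped, with a difference of −1.47 ± 0.96 (limma adjusted p = 0.533). Hspb11, a part of the transport machinery of cilia, was detected on no array.

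**Figure D5:**
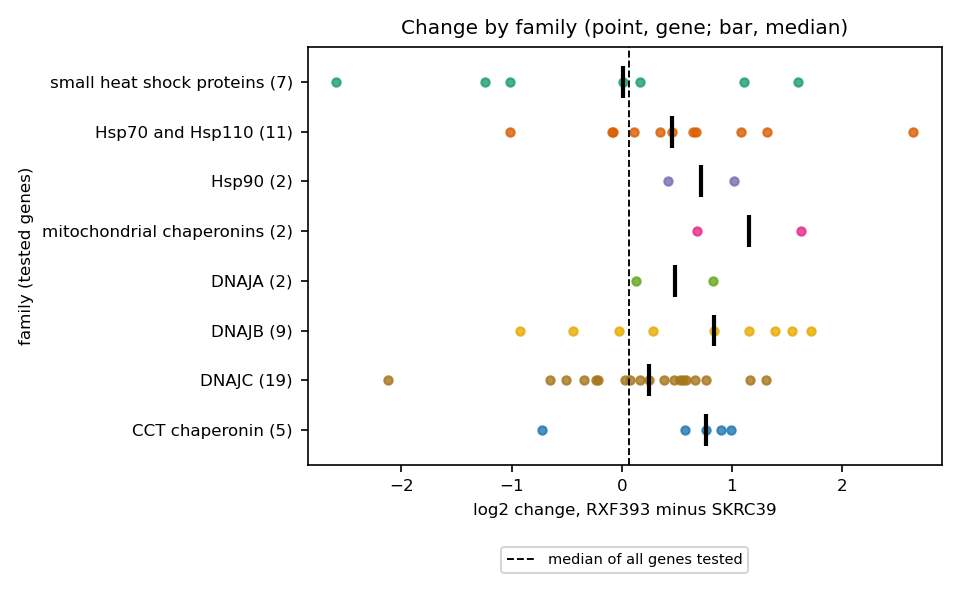
Log2 difference, RXF393 minus SKRC39, of the tested genes of each family (points) with the family median (black bar) and the median over all genes tested (dashed line, 0.07). The medians of 7 families lie right of the dashed line, and that of the small heat shock proteins lies at 0.01.

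Proteins that work with these chaperones but carry other symbols were counted from 6 lists of 60 genes. Of the 49 tested, 0 passed in either direction, with 26 positive and 23 negative differences and a median of 0.11. Positive differences were found in 9 of 18 Hsp90 co-chaperones, 6 of 10 tested Hsp70 co-factors, 5 of 8 CCT and prefoldin partners and 2 of 7 tested folding factors of the endoplasmic reticulum. The Hsp90 co-chaperones ran between −3.04 for Stip1 and 3.10 for Fkbp5, and the genes given here were named after their values were seen. Fkbp5, an immunophilin that glucocorticoids induce, stood at 12.75 and 13.85 in RXF393 muscle, against 10.03 and 10.37 in SKRC39 muscle (3.10 ± 0.47, limma adjusted p = 0.0682). Fkbp4, its close relative on Hsp90, stood at 12.05 and 10.38 in RXF393 muscle, against 13.11 and 13.09 in SKRC39 muscle (−1.88 ± 0.56, limma adjusted p = 0.262). The lines did not overlap for either. Stip1, which bridges Hsp70 and Hsp90, differed by −3.04 ± 1.57 and Ahsa1, which speeds up Hsp90, by −1.96 ± 1.30, both with overlapping lines (limma adjusted p = 0.459 and 0.536). Stip1 stood at 9.944 and 4.905 in RXF393 muscle, against 11.553 and 9.374 in SKRC39 muscle. Ahsa1 stood at 8.996 and 5.349, against 10.242 and 8.023. Each was detected on 4 arrays, and on RXF393 replicate 3 both lay below the lowest detected value. Among the heat shock factors, Hsf2 differed by 1.33 ± 0.84 with overlapping lines (limma adjusted p = 0.524), and Hsf4 by 0.86 ± 0.61 with both RXF393 arrays above (limma adjusted p = 0.558). Desmin (Des), a client of Cryab, differed by 0.29 ± 0.23 (limma adjusted p = 0.588).

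The heat shock element letters were found in a larger share of chaperone promoters than of all promoters, and the tested genes with and without them had nearly equal median differences. RefSeq windows (GRCm38.p6, 250 bases before to 50 bases from the gene start) were found for 65 of the 79 genes. GAANNTTC, a palindrome that reads the same on both strands, occurred in 16 of the 65 (24.6%), against 9.04% of 27025 genes. With a further GAA block 2 bases on, on either strand, it occurred in Dnajb6, Hspd1, Hspe1 and Hsph1 (6.15%, against 0.662%), and this longer form contains the shorter one. A gene with several windows was counted if any of them held the letters. Hspd1 and Hspe1 share the same site, which was counted for each gene. Of the 11 tested genes with GAANNTTC, 8 had positive differences, with a median of 0.54. Of the 38 tested genes with a window and no match, 28 had positive differences, with a median of 0.54. A match shows the letters, not a bound factor. The windows of Hspb2, Cryab, Hspa8, Hspa9, Hsp90aa1, Hspa13, Cct4, Dnajc2, Dnajc5, Dnajc5b, Dnajc11, Dnajc12, Dnajc18 and Dnajc30 were not used here.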

How the data were processed

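Each array measured total RNA from 1 quadriceps sample on the Illumina MouseWG-6 v2.0 platform. Per the file headers, the authors deposited non-normalized probe intensity, each value with its detection p-value. A second deposited table holds quantile-normalized intensity, made with the Gene Expression module 1.9.0 of GenomeStudio per the labels, and was used only as an alternative. The design text speaks of RNA taken from each mouse, and of 3 mice, which was taken to mean 3 for each line and 1 for each array. The text does not settle this, and p-values measure the spread between mice only if it holds.

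From the non-normalized intensities, the background was corrected with normexp, with its parameters inferred from the detection p-values and an offset of 16. The 6 arrays were quantile-normalized and taken to log2 (limma 3.58.1, R 4.3.3). Probes with a detection p-value below 0.05 on at least 2 arrays were kept, 17738 of 45281. RXF393 was compared with SKRC39 (2 arrays each) by lmFit and eBayes with an intensity trend, and p-values were adjusted by Benjamini-Hochberg over all 17738 probes, with a threshold of 0.05. The procedure was run on simulated data with independent noise on each array, a check of the code and not of the results here. Symbols came from the platform annotation, in which 34885 probes carry 1 symbol, 18 several and 10378 are not listed. Genes named are the main chaperones, every gene past the threshold and, per family, the 4 with the largest difference among those whose lines did not overlap, unless stated otherwise. The members, lists and tests were chosen with earlier results of these data known. The number of arrays limits the precision. Alternatives covered the background offset, the background method, the deposited table, the scaling, the filter, the probe rule, the variance model, the grouping of the disputed arrays, a replicate block, the p threshold and leaving out each array.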

Additional observations from a re-analysis of the deposited data

How the results depend on the processing

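No member passed with an offset of 50, normexp without detection p-values, the deposited table, median or no scaling, no filter, a detection p-value below 0.01, the mean of probes, no intensity trend, robust variance, 1 fit over 6 arrays, grouping by title, or an adjusted p below 0.1. Members called higher and lower numbered 0 and 1 with probes detected on all 6 arrays, where fewer probes were tested (11140), against 1.29% and 0.729% of all genes. They numbered 10 and 3 by characteristics, and 11 and 3 at an unadjusted p below 0.05. Leaving out each array gave 0 to 1 higher and 0 to 2 lower. The 1 and 2 came without RXF393 replicate 2 (Dnajb9 higher, Dnajc27 and Hspb2 lower), when 1.7% and 2.72% of all genes passed and 1 RXF393 array was assumed to vary as the SKRC39 arrays do. All genes called higher and lower numbered 20 and 16 in the main setting, 0 and 0 under either other scaling, without the trend and by title, and 1072 and 796 by characteristics.

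The numbers in the sample descriptions are shared between the lines, and whether they mark a batch is not stated. Deviations of same-numbered arrays correlated at 0.51 over 4 arrays and, by characteristics, at 0.49, at 0.46 and, for the 2 disputed arrays, at −0.12. The main fit took no pairing. With the replicate block, 3 members were higher (Dnajb2, Hspa4, Hspb1) and 1 lower (Hspb2) on 4 arrays, against 1.85% and 1.64% of all genes. By characteristics with the block, 15 were higher and 8 lower, against 16.2% and 14.4% of all genes.

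The members' median of 0.46 was 0.25 without a filter and 0.17 by title, and lay between 0.32 and 0.54 when each array was left out. With no scaling, the median of all genes shifted by −0.16. The small heat shock protein median was −0.026 with no scaling, −0.004 with no filter and −0.24 with the mean of probes. Leaving out 1 array took it to between −0.092 and 0.028, that of Hsp90 to between −0.005 and 1.444, and that of DNAJC to between −0.047 and 0.371, that of CCT to between 0.478 and 1.051, and that of Hsp70 and Hsp110 to between 0.213 and 0.81. With no filter the medians were 0.25 (DNAJB), 0.077 (DNAJC) and 0.166 (CCT), and by title 0.344, 0.013 and 0.387, with 0.168 for Hsp70 and Hsp110 and 0.51 for the mitochondrial chaperonins. Leaving out Hspa12a, chosen after seeing the data, gave 0.47 over all members and 0.50 over Hsp70 and Hsp110. Another filter, another variance model, 1 fit over all arrays, or the replicate block added to the main fit left each named gene's log2 difference unchanged. In those settings only the side of the threshold could change, so keeping direction there shows nothing. With them included, over 36 named genes and 20 settings, 655 results kept direction and side of the threshold, 39 newly passed and 26 turned sign. Those that turned were Dnajb1 under median scaling (0.134) and no scaling (0.068), Hspb6 under no scaling (−0.026), and Hspb8 (−0.24) and Cct3 (−0.27) with the mean of probes. By title, Cryab was 0.26, Hspb3 0.074, Hspb6 −0.008, Hspb8 −0.002, Hspa1a 0.48, Hsp90aa1 −0.11, Dnajb1 0.11, Dnajb5 0.21 and Cct6a 0.28. Leaving out 1 array turned Hspb6 (−0.014 to 0.028), Hspb8 (−0.092 to 0.423), Hspa1a (−0.96 to 0.81), Hspa9 (−0.029 to 0.259), Hsp90aa1 (−0.59 to 1.43), Dnajb1 (−0.49 to 0.44), Cct3 (−0.013 to 1.161) and Cct6a (−1.80 to 0.35). Causes were not tested.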

Other observations

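Members of 2 compartments were grouped after their values were seen, and no test was made of them. The group taken as endoplasmic reticulum lumen had 6 tested members, Hspa5, Hsp90b1, Dnajb9, Dnajc1, Dnajc3 and Dnajc10, of which Dnajc1 spans the membrane. All 6 had positive differences (RXF393 minus SKRC39), between 0.03 for Dnajc10 and 1.71 for Dnajb9, with a median of 0.61. Of all genes, 53.5% had positive differences. Both RXF393 arrays lay above both SKRC39 arrays for Hspa5, Hsp90b1, Dnajb9 and Dnajc1, and for 28.1% of all genes. Hspa5 was dim, at 5.60 and 5.95 in SKRC39 muscle, and its difference was 0.26 in the deposited table. The listed folding factors of the endoplasmic reticulum with other symbols went the other way, with 2 of 7 positive and a median of −0.45. In the mitochondrion, 6 of 9 tested members had positive differences and 3 negative ones, between −0.65 for Dnajc19 and 1.63 for Hspe1, with a median of 0.13. The 3 negative ones were Dnajc19, Dnajc15 and Dnajc4.

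The 2 arrays with conflicting labels were read as values only. On the array titled RXF_1, which its characteristics call SKRC39, Hspb1 stood at 11.73, Hspb2 at 11.76, Hspb3 at 11.81, Hspa4 at 7.11, Dnajb2 at 12.06 and Dnajc19 at 14.36. On the array titled SKR_3, which its characteristics call RXF393, Hspb1 stood at 13.08, Hspb2 at 7.86, Hspb3 at 9.11, Hspa4 at 9.30, Dnajb2 at 13.73 and Dnajc19 at 13.69. Over the 60 tested members, the array titled RXF_1 lay nearer the RXF393 mean for 14 and nearer the SKRC39 mean for 46. The array titled SKR_3 lay nearer the RXF393 mean for 48 and nearer the SKRC39 mean for 12. The same count was not made over all genes. Hspb1, Hspb2, Hspb3, Hspa4, Dnajb2 and Dnajc19 had passed with these 2 arrays grouped by characteristics, so their values here are not a separate observation. Cryab reached its lowest value of the 6 arrays, 10.16, on the array titled SKR_3. Hspd1 stood at 12.24 on the array titled RXF_1 and 12.10 on the array titled SKR_3.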
